A study of Homo sapiens with 12 samples.

Results

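The subject is the untreated course of a hepatocyte differentiation of H9, an established line of human embryonic stem cells. Libraries of day 19 were compared with libraries of day 7 of the protocol, in cells kept in 0.1% DMSO, the solvent used as the control. The members are the 4 control libraries, 2 of each day, out of 12 libraries in the series, and the course was described over the 18101 genes that passed a filter on low counts. The submitters name the day 7 cells hepatoblasts and the day 19 cells hepatocytes. The other 8 libraries were made at the same days from H9 cells given 30 nM T3 or 30 nM T4, the 2 thyroid hormones, and serve here for comparison of the course and for the estimate of the spread behind each p-value, since all 12 libraries entered 1 fit. All groups thus share the line, the protocol and the days. The labels give neither the time at which DMSO or hormone was added nor whether replicate libraries stem from separate cultures. P-values therefore rest on the spread within the pairs of the 6 groups, and that spread may be technical. The material was total RNA, and the labels name no sort for a cell type. In such bulk samples, fewer cells of a type and less RNA per cell cannot be told apart.

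Hepatoblasts are the bipotent progenitors of the embryonic liver, and they give rise to hepatocytes and to bile duct cells. Hepatocytes make most plasma proteins, assemble lipoproteins, release glucose, form urea and bile acids and detoxify drugs, under transcription factors of the HNF, FOXA and C/EBP families. Alpha-fetoprotein is the major plasma protein of the fetal liver and of the yolk sac, and albumin that of the liver after birth. The fetal intestine and the yolk sac arise from endoderm too and share with the liver many lipid handling and transport genes.

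Each control library held 18363549 to 19306181 expected counts, the unit of the deposited tables, in which a read shared by several transcripts is divided among them. Levels are given as CPM, counts relative to a library total that is rescaled by the TMM method and the same nominal size in every library. The libraries of the same day differed by a median of 0.082 on the log2 scale at day 7 and of 0.143 at day 19. The first principal component of all 12 libraries held 78.2% of the variance and set the days apart. The strand of counting is not given in the sources used here, and 59.3% of the genes in the files overlap another annotated gene, so a part of the reads of an overlapping gene could belong to its neighbour. Among genes described below this applies, for example, to LCT, APOA1, APOM, IGF2, A2M, PPARA, CDKN1A, TTR and TAT. Near-identical copies, such as GSTA1 and GSTA2, the CGB genes, SULT1A3 and the UGT2B and HLA genes, may share reads, and their single values are uncertain.

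Between day 7 and day 19, 6801 of the 18101 genes rose and 6311 fell at an adjusted p of at most 0.05 by edgeR's quasi-likelihood test with Benjamini-Hochberg adjustment. These calls made up 72.4% of the genes tested, 37.6% higher and 34.9% lower, and these shares are the background against which counts of gene groups are to be read. A fit of the 4 DMSO libraries alone called 12833 genes. Changes were larger on the upper side. Of the genes called, 1772 were at least 4-fold higher and 778 at least 4-fold lower, 9.79% and 4.3% of the genes tested, and 210 were at least 64-fold higher against 49 at least 64-fold lower. The split of the calls depends on the scaling. With library totals alone and no TMM factor, 33.1% of the calls were higher in place of 51.9%, and the median log2 fold change of all genes was -0.40 in place of 0.00. For groups with a median change under 0.4 in size, counts or medians are therefore given under both scalings. Counts of other groups can move with the scaling too, and for these both are given only in part. Another description is the share of all FPKM (the deposited unit, which is scaled by transcript length and library size) taken by a group. This share is relative to the library total too, so a gain of some groups lowers the shares of the others. By that measure apolipoproteins and their partners held 1.28% of the FPKM of a library at day 7 and 9.21% at day 19, and 50 cytosolic ribosomal proteins held 16.1% and 8.62%.

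The genes of highest FPKM differed between the days. At day 7, the 10 leading entries were the elongation factor EEF1A1, the ribosomal protein genes RPS2, RPS18, RPL41, RPS19 and RPLP0, the glycolytic enzyme GAPDH, the small nucleolar RNAs SNORD141A and SNORD141B with the same values in every library, and 1 Entrez entry with no symbol. At day 19 they were APOA1, AFP, APOA4, APOC3, APOE, APOA2, the ferritin subunits FTL and FTH1, EEF1A1 and the same unnamed entry. AFP stood at rank 943 by mean FPKM at day 7 and at rank 2 at day 19, with 73.2 and 14220.4 FPKM. APOA4 moved from rank 3232 to rank 3, and TTR, the carrier of retinol binding protein and thyroxine, from 108 to 12. Albumin stood far below them, with ALB at 7.05 FPKM and rank 7372 at day 19.

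**Figure D1:**
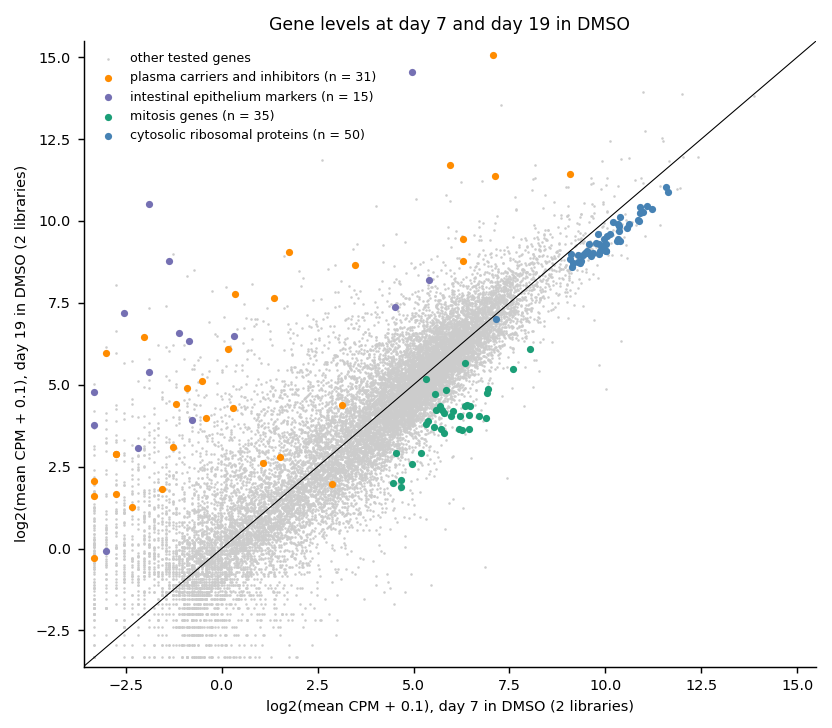
Each point is a gene, with its mean level at day 7 on the x axis and at day 19 on the y axis, both as log2(CPM + 0.1) over 2 DMSO libraries, and the diagonal marks equal levels. Plasma carriers and inhibitors (30 of 31 called higher) and intestinal markers (15 of 15 called higher) lie above it, while mitosis genes (34 of 35 called lower) and ribosomal proteins (48 of 50 called lower) lie below it.

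The promoters of some genes of the course are shown first, since letters known from liver and from cell cycle promoters recur in them. The letters GTTAAT recur in promoters of liver genes and were searched here on both strands in windows from 250 bases before to 50 after the RefSeq start of each gene (GRCh38.p14). They were found in 4.31% of the 13908 windows of tested genes, in 9.32% of the 1320 windows of genes at least 4-fold higher and in 4.82% of the 560 windows of genes at least 4-fold lower. In the plasma carrier and inhibitor list they stood in 7 of 24 windows, in the coagulation list in 7 of 21, in the apolipoprotein list in 3 of 12 and in the complement list in 1 of 13. The windows of the carrier and coagulation lists were also poorer in G and C, at 49.97% and 48.4% against 63.4% over all tested genes. The part of base composition in the shares of windows was not tested. The TATA box letters TATAAA stood in 15.4% of the windows of genes at least 4-fold higher and in 6.85% of all tested. In all 27305 RefSeq windows, tested genes or not, TATAAA stood in 12.0% and GTTAAT in 6.89%, at a mean of 57.2% G and C. The 200 bases before the start of AFP, of albumin and of the fibrinogen beta and alpha chains, which form the clot with FGG, are printed below with GTTAAT or its reverse complement ATTAAC in capitals, each on the strand of its gene. They are shown because these 4 secreted liver genes carry these letters close to the start, the first base lying 132 bases before it in AFP, 61 in ALB, 51 in FGB and 52 in FGA.
AFP (chr4:73436021-73436220, plus strand): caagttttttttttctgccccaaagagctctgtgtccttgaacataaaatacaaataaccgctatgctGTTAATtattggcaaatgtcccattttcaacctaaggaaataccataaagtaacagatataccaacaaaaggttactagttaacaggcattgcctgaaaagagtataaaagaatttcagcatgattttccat
ALB (chr4:73404087-73404286, plus strand): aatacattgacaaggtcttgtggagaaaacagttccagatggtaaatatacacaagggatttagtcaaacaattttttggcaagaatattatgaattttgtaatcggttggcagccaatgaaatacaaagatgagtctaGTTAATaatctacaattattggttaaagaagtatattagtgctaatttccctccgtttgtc
FGB (chr4:154562780-154562979, plus strand): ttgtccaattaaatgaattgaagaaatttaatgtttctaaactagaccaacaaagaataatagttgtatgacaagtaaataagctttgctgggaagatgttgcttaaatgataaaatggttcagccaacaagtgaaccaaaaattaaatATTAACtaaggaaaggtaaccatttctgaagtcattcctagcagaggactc
FGA (chr4:154590743-154590942, minus strand): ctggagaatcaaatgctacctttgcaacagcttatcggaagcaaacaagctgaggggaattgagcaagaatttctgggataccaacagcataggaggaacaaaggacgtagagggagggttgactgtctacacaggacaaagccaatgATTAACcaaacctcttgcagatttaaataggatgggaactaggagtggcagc

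All 4 genes rose. AFP stood at 136 and 131 CPM at day 7 and 32931 and 35468 CPM at day 19. FGB had 979.6 and 946 CPM at day 7 and 3435 and 3848 CPM at day 19, a log2 fold change of 1.92 ± 0.12 (SE). FGA had 287 and 287 CPM at day 7 and 2516 and 2533 CPM at day 19, a log2 fold change of 3.14 ± 0.11 (SE). No library of day 7 reached a library of day 19 in any of the 4, and the days did not overlap in 85.9% of all genes tested either. Albumin rose with them in ratio but from a low level, with 1.30 and 0.962 CPM at day 7 and 17.8 and 20.8 CPM at day 19 (adjusted p = 2.64e-10 by edgeR's quasi-likelihood test). GTTAAT was not found in the windows of SERPINA1, AHSG and C8A. SERPINA1, the alpha-1-antitrypsin gene, rose from 61.5 and 62.6 to 3157 and 3588 CPM. Its window lies at the outermost start of the gene, and starts further inside were not searched, so the letters could stand at another start.

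Another pair of letters is known from mitosis genes. The CCAAT box, bound by the factor NF-Y, and TTTGAA, the cell cycle genes homology region bound by the DREAM and MuvB complexes, were searched in the same windows and on both strands, and the 2 motifs share no position in the sequences shown. CCAAT was found in 35.8% and TTTGAA in 10.4% of the windows of all tested genes. Among genes at least 4-fold higher the shares were 31.97% and 12.95%, and among genes at least 4-fold lower 40.36% and 15.54%. In all RefSeq windows they were 35.70% and 15.43%. Of the 29 windows of mitosis genes, 23 held CCAAT and 21 held TTTGAA. Of the 33 windows of DNA replication genes, 19 held CCAAT and 1 held TTTGAA. 4 examples follow with both motifs in capitals, chosen because each holds both.
CCNB2 (chr15:59104946-59105145, plus strand): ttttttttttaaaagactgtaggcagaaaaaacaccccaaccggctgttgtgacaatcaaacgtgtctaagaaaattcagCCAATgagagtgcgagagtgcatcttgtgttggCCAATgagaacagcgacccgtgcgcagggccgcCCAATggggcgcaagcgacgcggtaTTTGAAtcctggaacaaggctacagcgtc
PLK1 (chr16:23678689-23678888, plus strand): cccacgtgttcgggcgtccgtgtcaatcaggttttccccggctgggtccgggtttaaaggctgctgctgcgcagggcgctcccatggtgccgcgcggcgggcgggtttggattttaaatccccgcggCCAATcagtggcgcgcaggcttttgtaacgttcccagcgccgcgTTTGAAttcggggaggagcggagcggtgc
CDC20 (chr1:43358781-43358980, plus strand): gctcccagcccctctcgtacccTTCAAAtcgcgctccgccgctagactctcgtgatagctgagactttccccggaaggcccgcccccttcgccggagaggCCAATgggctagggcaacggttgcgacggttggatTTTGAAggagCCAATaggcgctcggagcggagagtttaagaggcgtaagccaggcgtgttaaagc
TOP2A (chr17:40417897-40418096, minus strand): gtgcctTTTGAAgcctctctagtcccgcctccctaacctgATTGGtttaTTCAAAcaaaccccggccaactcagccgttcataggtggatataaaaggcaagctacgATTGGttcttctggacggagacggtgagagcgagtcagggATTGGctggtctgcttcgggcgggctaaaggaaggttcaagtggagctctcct

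CCNB2, a B-type cyclin of mitosis, fell from 87.7 and 87.9 to 12.4 and 12.8 CPM, a log2 fold change of -2.81 ± 0.07 (SE). PLK1, a kinase of mitotic entry, fell from 74.1 and 74.6 to 16.5 and 15.97 CPM. CDC20, the activator of the anaphase promoting complex, fell from 106 and 104 to 16.6 and 16.1 CPM. TOP2A, the topoisomerase that untangles chromosomes, fell from 264 and 262 to 76.1 and 60.8 CPM. In each of them both day 19 libraries lay below both day 7 libraries, and 85.9% of all genes tested had days without overlap, in either direction.

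Host transcripts of microRNAs were measured, whereas mature microRNAs were not, so the following values speak only of the hosts. Of 15 tested hosts 5 rose and 4 fell, or 5 and 6 with library totals alone. MIR17HG, host of the miR-17 to miR-92a cluster that is high in embryonic and dividing cells, fell from 17.4 and 18.5 to 1.70 and 2.43 CPM (log2 fold change -3.12 ± 0.15 (SE), adjusted p = 1.18e-10 by edgeR's quasi-likelihood test). MIR194-2HG, host of miR-192 and miR-194, which are high in liver and gut epithelium, rose from 2.17 and 1.97 to 5.45 and 6.38 CPM. MIR34AHG, host of the p53-induced miR-34a, rose from 5.44 and 5.68 to 13.02 and 17.9 CPM. MIRLET7BHG, host of let-7b and let-7a, had 1.35 and 1.06 CPM at day 7 and 1.27 and 0.668 CPM at day 19 and did not pass the test, while MIR100HG, host of miR-100 and another let-7a, rose from 0.482 and 0.481 to 1.999 and 1.46 CPM. The mature sequences of MIR17HG, MIR194-2HG and MIR34AHG, chosen for what is known of them in dividing cells, liver and the p53 response, are given 5′ to 3′ with the seed, bases 2 to 8, in capitals, from RefSeq. The cluster of MIR17HG holds 4 seeds: miR-17 and miR-20a share AAAGUGC, miR-19a and miR-19b share GUGCAAA, and miR-18a and miR-92a each have their own.
miR-17-5p: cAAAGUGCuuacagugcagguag
miR-20a-5p: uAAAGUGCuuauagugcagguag
miR-18a-5p: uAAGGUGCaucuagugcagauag
miR-19a-3p: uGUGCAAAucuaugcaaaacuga
miR-19b-3p: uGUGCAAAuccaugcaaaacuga
miR-92a-3p: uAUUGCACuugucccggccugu
miR-192-5p: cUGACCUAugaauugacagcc
miR-194-5p: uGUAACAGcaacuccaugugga
miR-34a-5p: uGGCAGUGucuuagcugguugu

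The labels of the 2 days were set against markers. Of 14 tested markers of mature hepatocytes, 13 rose and none fell, with a median log2 fold change of 3.28. ASGR1, a subunit of the asialoglycoprotein receptor, rose from 8.14 and 10.1 to 117 and 134 CPM, and SLC10A1, the sodium taurocholate carrier, rose from 1.11 and 1.01 to 72.1 and 74.4 CPM. Several markers of adult function were low at both days. CYP3A4, the leading drug oxidase of the adult liver, had 0.0482 and 0.192 CPM at day 7 and 0.666 and 0.547 CPM at day 19, and its fetal counterpart CYP3A7 had 0.0482 and 0.144 CPM at day 7 and 2.48 and 3.70 CPM at day 19. TAT, the tyrosine aminotransferase induced around birth, had 2.12 and 1.97 CPM at day 7 and 2.54 and 2.19 CPM at day 19 and did not pass the test (adjusted p = 0.508, edgeR). CYP7A1, the rate-limiting enzyme of bile acid synthesis, was at 0 in both day 19 libraries and did not pass the filter on low counts. Per length, AFP stood far above ALB at day 19, with 14220.4 against 7.05 FPKM. Of 10 hepatoblast markers 5 rose and 5 fell. AFP, DLK1, GPC3, EPCAM and TTR rose, and TBX3, HNF4A, KRT19 and ID3 were among those that fell. DLK1, a surface protein of the fetal liver, went from 64.5 and 60.7 to 519.9 and 668 CPM, and GPC3, a proteoglycan of fetal liver, from 224 and 218 to 673 and 728 CPM.

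Of 28 tested transcription factors of the liver, 18 rose and 7 fell, and with library totals alone these counts were 14 and 8. CEBPA, a master regulator of liver metabolism, rose from 49.4 and 47.8 to 492 and 477 CPM, a log2 fold change of 3.32 ± 0.07 (SE). CREB3L3, a liver factor activated by fasting, rose from 22.3 and 22.2 to 283 and 285 CPM. PPARA, the receptor that drives fatty acid oxidation, rose from 28.8 and 29.6 to 217 and 180.1 CPM, and NR5A2, a regulator of bile acid genes, rose from 1.78 and 1.88 to 18.6 and 15.1 CPM. FOXA2, an early endoderm factor, fell from 88.3 and 89.7 to 38.9 and 39.4 CPM, and HHEX, needed for the liver bud, fell from 3.47 and 4.62 to 0.424 and 0.243 CPM.

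Of 31 tested plasma carriers, protease inhibitors and acute phase proteins 30 rose and 1 fell, with a median log2 fold change of 5.82, or 5.36 when genes with no count at day 7 are set at their lower bound. The list took 0.206% of all FPKM at day 7 and 4.53% at day 19. AHSG, the fetal plasma protein fetuin-A, rose from 3.42 and 3.08 to 493 and 570.4 CPM. A2M, a broad protease inhibitor, rose from 1.06 and 1.30 to 222 and 217 CPM. HPX, which binds heme in plasma, rose from 12.1 and 9.76 to 399 and 399 CPM, and AMBP, the precursor of alpha-1-microglobulin and bikunin, rose from 2.17 and 2.74 to 187 and 210.4 CPM. Days did not overlap for any of these 4, nor for 85.9% of all genes tested. ITIH4, an acute phase protein, fell from 7.70 and 6.88 to 3.27 and 4.31 CPM.

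Of 18 tested apolipoproteins and partners of lipoprotein assembly, 17 rose and 1 fell, with a median log2 fold change of 2.83. APOA4, made by fetal liver, yolk sac and intestine, rose from 31.3 and 31.0 to 23024 and 24748 CPM, a log2 fold change of 9.58 ± 0.10 (SE). APOC3, an inhibitor of lipoprotein lipase, rose from 5.49 and 6.59 to 3426 and 3994 CPM, and APOC2, the activator of the same lipase, rose from 0.337 and 0.192 to 154 and 183 CPM. APOA1, the core protein of HDL, was high already at day 7 and rose from 1981 and 2041 to 15073 and 16375 CPM. APOA1 thus gained less in ratio than APOA4 and APOC3, its neighbours in the same gene cluster. APOM, a carrier of sphingosine phosphate on HDL, fell from 23.6 and 24.0 to 11.1 and 11.5 CPM.

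Of 24 coagulation and fibrinolysis factors 22 rose and 1 fell, and of 17 complement genes 14 rose and none fell. FGG, the fibrinogen gamma chain, rose from 35.9 and 31.4 to 1525 and 1704 CPM, and so gained more in ratio than FGA and FGB, which started from higher levels. KNG1, kininogen, rose from 0.289 and 0.144 to 74.0 and 73.8 CPM, and SERPIND1, heparin cofactor 2, rose from 0.626 and 0.962 to 91.8 and 94.4 CPM. CPN1, the small subunit of carboxypeptidase N, fell from 27.3 and 27.0 to 13.1 and 15.97 CPM, while its large subunit CPN2 rose from 13.6 and 13.9 to 55.5 and 57.8 CPM. C3, on which all complement pathways converge, rose from 1.54 and 1.68 to 68.9 and 64.9 CPM, C6 and C8B, parts of the membrane attack complex, reached 14.98 and 21.4 CPM at day 19, and MBL2, the lectin that starts the lectin pathway, rose from 0.385 and 0.625 to 20.1 and 17.9 CPM.

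**Figure D2:**
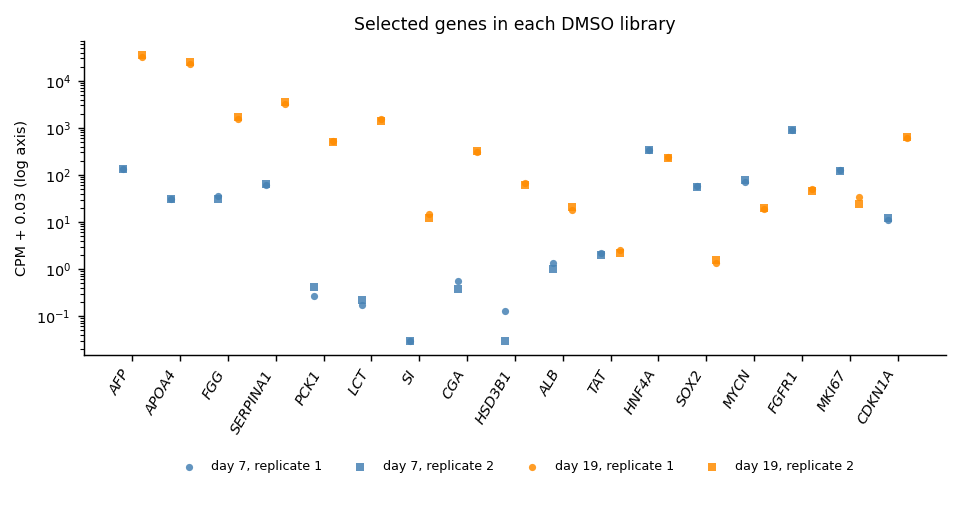
Levels of 17 genes in each of the 4 DMSO libraries, as CPM + 0.03 on a log axis, with day 7 in blue and day 19 in orange and a circle or square for replicate 1 or 2. The 2 replicates of a day lie close together beside the distance between days for all genes but TAT, whose days lie side by side.

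Of 13 tested genes of glucose output, glycogen and fructose handling 13 rose, with a median log2 fold change of 2.61. PCK1, the rate-controlling enzyme of glucose output, had 0.241 and 0.385 CPM at day 7 and 519.8 and 508 CPM at day 19 (adjusted p = 1.42e-14 by edgeR's quasi-likelihood test). FBP1, fructose bisphosphatase, rose from 1.44 and 1.78 to 119 and 138 CPM, PC, pyruvate carboxylase, rose from 24.1 and 25.1 to 173 and 161 CPM, and SLC2A2, the liver glucose carrier, rose from 0.144 and 0.144 to 16.2 and 16.6 CPM. Of 17 glycolysis genes, 12 fell and 4 rose. PKM, the pyruvate kinase of fetal and dividing cells, fell from 1081 and 1057 to 499.6 and 505 CPM, and LDHA, lactate dehydrogenase, fell from 826 and 813 to 319 and 351 CPM. SLC2A1, the glucose carrier of fetal cells, went the other way and rose from 329.9 and 335 to 1355 and 1348 CPM, and PFKP, the platelet type of phosphofructokinase, rose from 148 and 148 to 375 and 366 CPM.

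Lipid genes were counted in 3 lists. Of 21 fatty acid oxidation genes 18 rose and 1 fell, of 23 genes of fatty acid and triglyceride synthesis and storage 20 rose and 1 fell, and of 23 cholesterol genes 23 rose and none fell. With library totals alone, 17 of the 23 cholesterol genes were called higher and none lower. CPT1A, the gate of fatty acids into mitochondria, rose from 7.27 and 8.56 to 60.9 and 56.8 CPM. PLIN2, a coat protein of lipid droplets, rose from 67.8 and 69.4 to 804 and 841 CPM, a log2 fold change of 3.58 ± 0.06 (SE), and DGAT2, which completes triglycerides, rose from 30.8 and 29.9 to 419 and 417 CPM. MSMO1 and CYP51A1, enzymes that remove methyl groups from lanosterol, rose by 2.80 and 2.82 on the log2 scale, and INSIG1, the sterol sensor partner, by 2.71. ELOVL6, a fatty acid elongase, fell from 109 and 107 to 38.8 and 34.7 CPM.

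Of 33 urea cycle and amino acid breakdown genes 27 rose and 3 fell, with a median log2 fold change of 1.73. CPS1, the entry enzyme of the urea cycle, rose from 24.4 and 25.5 to 272 and 269.6 CPM. HGD, which opens the ring of homogentisate in tyrosine breakdown, had 0.0482 and 0.0481 CPM at day 7 and 91.4 and 106 CPM at day 19, and MAT1A, the liver form of methionine adenosyltransferase, rose from 1.16 and 0.818 to 259 and 249.6 CPM. The 3 that fell were DPYS, dihydropyrimidinase (from 34.7 and 37.7 to 3.88 and 2.55 CPM), AASS, of lysine breakdown (from 75.9 and 76.5 to 40.4 and 34.7 CPM), and CBS, of transsulfuration (from 53.5 and 57.3 to 35.6 and 40.6 CPM). Genes of the periportal zone of the liver lobule rose in 10 of 11 cases, and genes of the pericentral zone rose in 4 of 13 and fell in 7, with a median log2 fold change of -0.37, or -0.77 and the same counts with library totals alone. GLUL, glutamine synthetase of the pericentral rim, rose from 497 and 499 to 2182 and 2038 CPM, and OAT, ornithine aminotransferase, rose from 74.9 and 78.4 to 742 and 749 CPM. Other members of the pericentral list went the other way, with AXIN2 falling from 45.8 and 43.9 to 17.4 and 16.2 CPM, ZNRF3 from 38.4 and 38.8 to 19.7 and 18.04 CPM and SP5 from 20.5 and 21.5 to 1.45 and 1.40 CPM.

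Of 19 bile acid genes 16 rose and 2 fell, and of 40 genes of drug metabolism 34 rose and 4 fell. ABCC3, an export pump of the basal membrane, rose from 0.433 and 0.770 to 37.0 and 42.6 CPM, SLC51A, part of the basolateral organic solute carrier, rose from 5.20 and 6.11 to 74.9 and 89.6 CPM, and SLC22A7, an organic anion carrier, rose from 8.28 and 7.07 to 164 and 167 CPM. CYP1A1, the oxidase induced through the aryl hydrocarbon receptor, rose from 10.5 and 10.6 to 565 and 568 CPM, a log2 fold change of 5.74 ± 0.07 (SE). GSTA1 and GSTA2, glutathione transferases of the liver, rose to 775 and 1577 CPM, POR, the reductase that feeds all microsomal P450 enzymes, rose from 64.9 and 66.9 to 298 and 300.2 CPM, and EPHX1, the microsomal epoxide hydrolase, rose from 56.8 and 52.2 to 418 and 442 CPM. Of 21 iron, heme and copper genes 14 rose and 2 fell, or 14 and 6 with library totals alone. ALAS1, the first enzyme of heme synthesis, rose from 47.0 and 50.1 to 249.4 and 248.98 CPM, and SLC40A1, the iron exporter ferroportin, rose from 11.5 and 12.6 to 255 and 214 CPM, while FECH, the last enzyme of heme synthesis, fell from 36.6 and 35.1 to 28.2 and 24.1 CPM.

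Pluripotency genes were still detected at day 7 and fell. Of 22 tested, 17 fell and 1 rose, with a median log2 fold change of -1.77. POU5F1, which encodes OCT4, fell from 168 and 176 to 4.24 and 4.43 CPM, with an adjusted p of 1.21e-14 by edgeR's quasi-likelihood test. SOX2 fell from 58.5 and 54.3 to 1.33 and 1.52 CPM, L1TD1 fell from 99.7 and 95.1 to 21.7 and 20.04 CPM, and DPPA4 fell from 99.8 and 98.2 to 28.2 and 29.3 CPM. CRIPTO, a NODAL coreceptor, rose from 13.9 and 14.4 to 34.8 and 38.6 CPM. Of 20 genes of the primitive streak and definitive endoderm, 10 fell and 6 rose, and with library totals alone 13 fell and 4 rose. SOX17, a definitive endoderm factor, fell from 113 and 111 to 13.9 and 15.7 CPM, OTX2 fell from 59.7 and 60.7 to 2.18 and 2.91 CPM, and APELA, a peptide ligand of early endoderm, fell from 45.9 and 46.4 to 4.12 and 5.04 CPM. Fetal and oncofetal genes split, 9 of 17 higher and 8 lower. IGF2, the fetal growth factor, rose from 157 and 152 to 11509.5 and 12362 CPM, a log2 fold change of 6.27 ± 0.09 (SE), and HMGA2, a chromatin protein of fetal growth, rose from 77.0 and 75.2 to 207 and 189 CPM. HMGA1, its paralog, fell from 1581 and 1473 to 465 and 463 CPM, and SALL4, a stem cell zinc finger factor, fell from 123 and 128 to 36.0 and 35.0 CPM.

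Of 35 mitosis and cytokinesis genes 34 fell and none rose, with a median log2 fold change of -2.05. Of 38 genes of DNA replication and S phase 34 fell and 2 rose, with a median of -1.23. MKI67, the Ki-67 antigen of cycling cells, fell from 125 and 119 to 34.5 and 24.4 CPM, MCM2 and MCM7, subunits of the replicative helicase, fell, with log2 fold changes of -1.95 and -1.89, and ORC1, of the origin recognition complex, by 2.36. CCNE1, cyclin E1, rose from 27.5 and 27.4 to 47.9 and 44.6 CPM. TYMS, thymidylate synthase, was called higher by 0.46 on the log2 scale, a call that was lost with library totals alone (0.06). Of 15 cyclin dependent kinase inhibitors and G1 regulators 13 rose and 2 fell. CDKN2B, the inhibitor p15 that TGF-beta induces, rose from 1.06 and 1.20 to 30.4 and 32.2 CPM, and CDKN1C, the imprinted inhibitor p57, rose from 516 and 535 to 2015 and 2205 CPM, while CDKN1B, p27, fell from 43.6 and 46.1 to 37.0 and 34.4 CPM. CDKN1A, p21, had a log2 fold change of 5.77 ± 0.08 (SE). Of 22 p53 target genes, 20 rose and 1 fell. GDF15, a stress cytokine, rose from 10.4 and 11.9 to 207 and 229 CPM, ZMAT3 rose from 23.4 and 22.3 to 104 and 87.0 CPM and RRM2B, a ribonucleotide reductase subunit, rose from 27.8 and 27.99 to 95.4 and 90.6 CPM, while TP53I3 fell from 37.8 and 40.8 to 14.8 and 15.4 CPM.

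Most genes of protein synthesis and RNA processing were called lower. Of 50 cytosolic ribosomal proteins 48 fell and none rose, with a median log2 fold change of -0.57, of 25 genes of ribosome assembly 23 fell and 1 rose (median -1.02), and of 30 splicing factors 25 fell and 4 rose (median -0.79). At least 2-fold lower were 0 of the ribosomal proteins, 15 of the assembly genes and 13 of the splicing factors. RPSA, a small subunit protein, fell from 1322 and 1359 to 665 and 681 CPM, and RPL10A, of the large subunit, fell from 1041 and 1044 to 526 and 549 CPM. NPM1 and FBL, proteins of the nucleolus, fell, with log2 fold changes of -1.20 and -1.499. MYCN fell from 72.0 and 78.8 to 19.1 and 19.98 CPM, whereas MYC rose from 3.80 and 4.14 to 7.51 and 9.90 CPM. HNRNPA1 fell from 2144 and 2013 to 725 and 750.2 CPM and SRSF3 fell from 340.3 and 332 to 106 and 117 CPM. MBNL1 and MBNL2, splicing factors that rise as tissues mature, went the other way, by 1.15 and 2.997 on the log2 scale. Of 24 hosts of small nucleolar RNAs with a symbol SNHG, 17 fell and 5 rose.

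Of 20 genes of DNA methylation and Polycomb 12 fell and 2 rose, or 17 and 1 with library totals alone. EZH2, the methyltransferase of Polycomb, fell from 34.0 and 36.9 to 7.09 and 8.02 CPM, CBX2 fell from 121 and 117 to 13.1 and 11.3 CPM, and DNMT3B, the embryonic DNA methyltransferase, fell from 189 and 195 to 66.9 and 61.0 CPM. Zinc finger genes with a symbol ZNF, many of which encode repressors with a KRAB domain, were called lower in 316 of 539 cases and higher in 52, against 34.9% lower over all genes. Clustered and other protocadherins were lower in 32 of 69 cases and higher in 4. Of 1784 long noncoding RNAs, 526 (29.5%) were called lower and 289 (16.2%) higher, against 34.9% and 37.6% of all genes, with a median log2 fold change of -0.28, or -0.68 with library totals alone. On the upper side, 199 of 357 solute carriers with a symbol SLC rose and 71 fell, and 26 of 31 serpins rose and 1 fell. ZNF genes had a median log2 fold change of -0.47, or -0.88 with library totals alone.

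**Figure D3:**
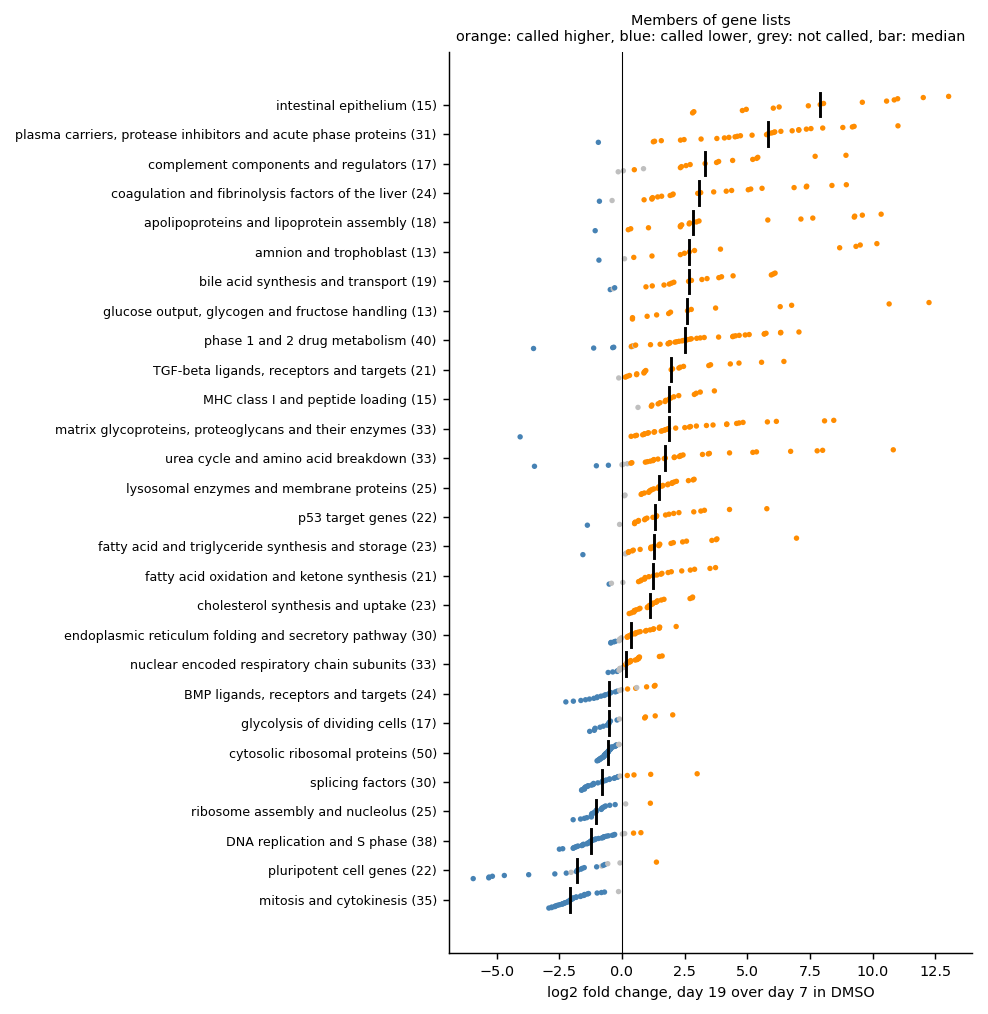
Each point is a tested member of a gene list, at its log2 fold change of day 19 over day 7 in DMSO, with the number of tested members in brackets and the lists ordered by their median, drawn as a bar. Points in orange were called higher, in blue lower and in grey not called; medians run from -2.05 for mitosis to 7.90 for intestinal markers.

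Respiratory chain subunits moved little and their direction depended on the scaling. Of 33 tested, 17 were called higher and 4 lower with TMM (median 0.17), and 8 higher and 19 lower with library totals alone. SDHA and SDHB, subunits of complex 2, rose under both scalings, SDHA from 65.4 and 65.5 to 179 and 189 CPM and SDHB from 26.7 and 29.6 to 83.4 and 87.4 CPM. Of 19 genes of the citrate cycle and mitochondrial biogenesis 14 rose and 3 fell, or 11 and 7 with library totals alone. PDK4, the kinase that spares pyruvate in fasting, rose from 1.88 and 2.55 to 119 and 111 CPM, PDK1 fell from 33.5 and 34.0 to 16.6 and 16.5 CPM, and the mitochondrial factors TFAM and NRF1 fell, with log2 fold changes of -1.22 and -0.95. Secretory pathway genes were called higher in 20 of 30 cases and lower in 4, or in 11 and 13 with library totals alone. P4HB, protein disulfide isomerase, rose from 816 and 820.0 to 2295 and 2293 CPM, and MIA2, an exit site protein of large secretory cargo, rose from 36.2 and 34.2 to 159 and 155 CPM.

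Lysosomal genes rose in 23 of 25 cases with none lower, at a median log2 fold change of 1.46. CTSB, cathepsin B, rose from 272 and 276 to 1922 and 1994 CPM, NEU1, the lysosomal sialidase, rose from 107 and 109.6 to 667 and 694 CPM, and SMPD1, acid sphingomyelinase, rose from 32.5 and 32.8 to 147 and 147 CPM. Of 21 peroxisomal genes 14 rose and 4 fell, and ACAA1, the peroxisomal thiolase, went from 131 and 129 to 459 and 491 CPM. Oxidative stress genes rose in 15 of 19 cases and fell in 1, or in 13 and 5 with library totals alone. NQO1 went from 39.6 and 42.2 to 116 and 126 CPM. Targets of ATF4 split, with 9 of 20 higher and 11 lower, or 6 and 11 with library totals alone. PSAT1, of serine synthesis, fell from 89.7 and 87.3 to 22.4 and 27.3 CPM, CHAC1, which degrades glutathione, fell from 31.0 and 36.4 to 5.69 and 6.80 CPM, and ATF3 rose from 18.97 and 17.3 to 78.1 and 78.1 CPM.

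Of 23 interferon response genes 19 rose and none fell, and of 15 genes of antigen presentation 14 rose and none fell. IFI6 rose from 1.40 and 1.39 to 106 and 105 CPM, GBP2, an interferon-induced GTPase, rose from 0.289 and 0.289 to 37.5 and 33.5 CPM, and MX1, an antiviral GTPase, rose from 0.819 and 0.721 to 18.3 and 15.8 CPM. HLA-E and HLA-C, class 1 molecules, rose by 2.07 and 1.52 on the log2 scale, and TAP1, the peptide pump of the same pathway, by 3.12. In the inflammation list 13 of 19 rose and 3 fell. IL32, a cytokine, rose from 5.44 and 5.44 to 114 and 135 CPM, ICAM1 rose from 1.01 and 1.15 to 23.9 and 26.6 CPM, and SOCS3, the feedback inhibitor of the IL-6 pathway, fell from 46.4 and 46.5 to 32.0 and 30.6 CPM.

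Of 33 tested matrix genes 32 rose and 1 fell, and of 25 collagen genes 17 rose and 6 fell. LAMB3, of an epithelial laminin, rose from 4.62 and 3.94 to 306 and 305 CPM, TIMP3, an inhibitor of metalloproteases, rose from 18.2 and 18.3 to 454 and 413 CPM, and MMP2, a gelatinase, rose from 27.3 and 28.3 to 352 and 336 CPM. VCAN, a large proteoglycan of embryonic matrix, fell from 1352 and 1350.0 to 84.7 and 77.1 CPM. COL12A1 and COL16A1, collagens that bind to fibrils, rose by 6.50 and 5.05 on the log2 scale, while COL4A1 and COL4A6, chains of the basement membrane, fell, with log2 fold changes of -0.91 and -1.98. Of 12 markers of stellate and mesenchymal cells 9 rose and 3 fell. LUM, lumican, rose from 6.45 and 6.93 to 368 and 377 CPM, PDGFRB, a receptor of pericytes and stellate cells, rose from 4.77 and 5.48 to 136 and 119 CPM, and its paralog PDGFRA fell from 189.6 and 192 to 33.3 and 26.7 CPM. LRAT, which stores retinol in stellate cells, fell from 11.3 and 12.1 to 1.999 and 1.94 CPM. The summed level of this marker list was 571 and 581 CPM at day 7 and 6551 and 6291 CPM at day 19, and none of its markers was at 0. The part of mesenchymal cells in the rise of the matrix genes was not tested.

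TGF-beta ligands, receptors and targets rose in 20 of 21 cases, with a median log2 fold change of 1.96, and BMP genes fell in 16 of 24 cases and rose in 5. With library totals alone, TGF-beta genes were called higher in 15 cases and lower in 3, and BMP genes in 2 and 19. TGFB1 itself rose from 35.6 and 34.9 to 131 and 143 CPM, and INHBA, the activin subunit, rose from 0.915 and 1.06 to 47.2 and 46.8 CPM. The target TGFBI, a matrix adaptor, rose from 16.5 and 15.6 to 1478 and 1341 CPM. The BMP ligands BMP4, BMP6 and BMP7 fell by 1.30, 1.64 and 1.94 on the log2 scale, SMAD9 fell from 28.7 and 30.6 to 6.66 and 5.89 CPM, and ID1, the target that BMP signals induce most directly, fell from 505 and 513 to 180.0 and 192 CPM. BMPR2, the type 2 receptor, rose from 44.1 and 42.0 to 115 and 95.0 CPM.

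Wnt genes were called higher in 17 of 31 cases and lower in 9, or in 13 and 14 with library totals alone. The ligand WNT5A, of the beta-catenin independent branch, rose from 5.30 and 6.16 to 89.7 and 81.9 CPM, and the antagonist SFRP2 rose from 14.9 and 13.8 to 99.2 and 91.1 CPM. The agonist RSPO3 fell from 90.7 and 88.9 to 6.06 and 7.29 CPM, the receptor FZD7 fell from 272 and 279 to 83.9 and 72.9 CPM, and the receptor FZD5 rose from 65.5 and 68.7 to 186 and 175 CPM. FGF and EGF genes were called higher in 15 of 29 cases and lower in 12, or in 11 and 15 with library totals alone. FGFR1, the FGF receptor of embryonic cells, fell from 912 and 902 to 49.9 and 46.5 CPM, a log2 fold change of -4.23 ± 0.06 (SE), and KLB, the coreceptor that hepatocytes use for FGF19 and FGF21, rose from 23.7 and 25.6 to 289 and 264 CPM. FGF19 fell from 3.03 and 3.99 to 0.0606 and 0.243 CPM. MET, the receptor of hepatocyte growth factor, rose from 8.52 and 7.79 to 99.9 and 84.5 CPM, ERBB3 rose from 64.2 and 62.9 to 238 and 201 CPM, and the ligands EGF and AREG rose from 1.06 and 1.64 to 46.9 and 49.2 CPM and from 0.289 and 0.192 to 23.3 and 31.1 CPM.

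Of 18 IGF pathway genes 16 rose and 1 fell. IGFBP3 rose from 59.6 and 59.9 to 929 and 889 CPM, IGFBP7 rose from 4.53 and 5.72 to 186 and 199 CPM, and PAPPA, the protease that frees IGF from its binding proteins, rose from 4.53 and 5.44 to 72.6 and 58.3 CPM. IGFBP2, the binding protein of fetal cells, fell from 399 and 402 to 154 and 166 CPM. Of 23 Notch and Hippo genes 17 rose and 4 fell. The ligand DLL1 fell from 47.3 and 45.3 to 5.75 and 6.25 CPM, the target HEY1 rose from 18.1 and 18.5 to 75.5 and 74.3 CPM, and WWTR1, which encodes the coactivator TAZ, rose from 14.9 and 15.3 to 75.8 and 68.3 CPM. Its targets ANKRD1 and CCN2 rose by 2.97 and 3.46 on the log2 scale, while the factors TEAD2 and TEAD4 fell, with log2 fold changes of -1.58 and -1.65. Of 20 retinoid genes 12 rose and 4 fell, or 10 and 8 with library totals alone. RBP4, the plasma carrier of retinol, rose from 139 and 139 to 2563 and 2775 CPM, ALDH1A1, which makes retinoic acid, rose from 86.7 and 87.0 to 500.3 and 521 CPM, and CYP26A1, which degrades it, fell from 33.9 and 35.2 to 10.4 and 12.1 CPM.

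Of 30 junction genes 23 rose and 6 fell, or 16 and 7 with library totals alone. CDH1, E-cadherin, rose from 297 and 307 to 718 and 665 CPM, while CDH2, N-cadherin, fell from 385 and 386 to 156 and 158 CPM. CLDN1, a tight junction protein of hepatocytes and other epithelia, rose from 3.56 and 3.08 to 104 and 106 CPM, and GJA1, connexin 43, fell from 836 and 818 to 128 and 124 CPM. Of 12 keratins 9 rose and 2 fell. KRT7 and KRT23, keratins of bile ducts and other simple epithelia, rose from 63.2 and 63.6 to 314 and 322 CPM and from 0.578 and 0.577 to 61.5 and 53.8 CPM, and KRT19, of the same epithelia, fell from 1441 and 1478 to 1169 and 1181 CPM. Of 20 imprinted genes 13 rose and 5 fell, and PHLDA2, which restrains placental growth, rose from 2.12 and 1.64 to 53.5 and 59.9 CPM. Of 30 nuclear receptors 20 rose and 5 fell. NR2F2, COUP-TFII, rose from 16.1 and 15.6 to 196 and 174 CPM, NR3C1, the glucocorticoid receptor, rose from 6.404 and 7.36 to 48.4 and 38.2 CPM, and NR6A1, the germ cell nuclear factor, fell from 183 and 181 to 86.7 and 84.5 CPM. Of 16 clock genes 12 rose and 2 fell. BHLHE40, a repressor of the clock, rose from 2.31 and 2.26 to 86.2 and 82.8 CPM, DBP, a clock output factor, rose from 9.44 and 8.61 to 49.97 and 49.2 CPM, and CIART fell from 5.59 and 5.63 to 1.76 and 1.46 CPM.

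Markers of other endoderm differed by organ. Of 15 tested markers of intestinal epithelium 15 rose and none fell, against 37.6% of all genes. The list was chosen with earlier results of these data known, so this count describes its members and is no test. The median log2 fold change was 7.90, or 7.55 with genes at 0 set at their bound. The summed level of the list went from 99.5 and 99.0 CPM to 25954 and 27582 CPM, most of it APOA4, which fetal liver and yolk sac make too. LCT, lactase of the intestinal brush border, had 0.144 and 0.192 CPM at day 7 and 1538 and 1379 CPM at day 19. MEP1A, a brush border protease, had 0.144 and 0 CPM at day 7 and 148 and 144 CPM at day 19, and RBP2, the retinol binding protein of enterocytes, rose from 0.385 and 0.192 to 409 and 476 CPM. LGALS4, a lectin of the gut lining, rose from 0.482 and 0.433 to 73.3 and 86.7 CPM. SI, sucrase-isomaltase, had no count at day 7 and 14.8 and 12.3 CPM at day 19, at least 188-fold higher against a floor of 3 counts over the 2 libraries. The intestinal master factors CDX2 and CDX1, named as list members after their values were seen, went from 22.1 and 23.4 to 165 and 167 CPM and from 0.0482 and 0.192 to 9.15 and 7.47 CPM. MUC2, the mucin of goblet cells, was at 0 in all 4 libraries. Of 5 tested stomach markers 3 rose and 1 fell, and the summed level of the list went from 63.2 and 58.7 CPM to 43.2 and 42.4 CPM. The marker that fell was SOX2, given above among the pluripotency genes, and its level made up most of the day 7 sum. The fall of the sum is thus that of SOX2. Of 4 tested markers of lung and thyroid endoderm none rose and 1 fell, or none and 2 with library totals alone. The part of intestinal cells in the rise of genes that liver and gut share, APOA4 among them, was not tested.

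Of 13 tested markers of amnion and trophoblast 11 rose and 1 fell. CGA, the shared subunit of the glycoprotein hormones, rose from 0.530 and 0.337 to 314 and 323 CPM, a log2 fold change of 9.50 ± 0.16 (SE). CGB5, a beta chain of chorionic gonadotropin, had 0 and 0.144 CPM at day 7 and 51.5 and 49.98 CPM at day 19, and HSD3B1, the placental steroid dehydrogenase, had 0.0963 and 0 CPM at day 7 and 65.7 and 59.9 CPM at day 19. GABRP, a marker of amnion, rose from 73.3 and 72.1 to 488 and 449 CPM, and ISL1, an early amnion factor, fell from 19.3 and 18.7 to 9.99 and 10.1 CPM. The summed level of the list went from 643 and 633 CPM to 2880.2 and 2732 CPM. A large part of the day 19 sum came from IGFBP3 and KRT7, which are described above in other groups too. PSG1, a main product of the placental syncytium, was at 0 at day 7 and did not pass the filter. Of 11 yolk sac endoderm genes, most of which the fetal liver also uses, 8 rose and 2 fell.

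Markers of further cell types were counted in the same way. Of 12 bile duct markers 9 rose and 3 fell, with SPP1, osteopontin, going from 1.64 and 1.97 to 124 and 133 CPM and GGT1 from 10.6 and 12.7 to 99.9 and 109 CPM. All 6 tested mesothelial markers were called higher, 5 with library totals alone, and their sum went from 87.8 and 89.4 to 299.8 and 293 CPM. Of 5 tested blood and macrophage markers 2 rose, 1 fell and 2 were not called, with the same counts under library totals alone. CD68, a lysosomal protein of macrophages, rose from 5.34 and 5.24 to 82.6 and 87.2 CPM, and CSF1R, also made by trophoblast, rose from 0.819 and 0.192 to 47.3 and 42.1 CPM, while CD163, a scavenger receptor of macrophages, fell from 9.77 and 9.76 to 5.63 and 5.40 CPM, and PTPRC, which marks all white blood cells, did not pass the filter. Of 8 tested neural markers 5 fell and 1 rose, with DCX, of migrating neurons, going from 10.8 and 10.1 to 0.727 and 0.304 CPM. Endothelial markers gave 4 of 10 higher and 3 lower, or 2 and 3 with library totals alone, and their sum was 99.3 and 99.9 CPM at day 7 and 137 and 126 CPM at day 19. Of 5 tested pancreas markers 3 rose and 1 fell, or 2 and 1 with library totals alone. SST, somatostatin, which gut cells also make, rose from 0.241 and 0.0481 to 9.81 and 10.4 CPM, and CHGA, chromogranin A of endocrine cells, fell from 3.18 and 2.40 to 0.121 and 0.0607 CPM.

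The 15 genes with the largest fitted log2 fold change upward, among those of at least 5 CPM on 1 day whose libraries did not overlap, included LCT, SULT1A3, SLC26A3, MMP12, MUC13, PHGR1, MS4A18, SERPINA7, SI, LGALS16, MEP1A, HGD, PCK1 and RBP2. Of these, SULT1A3, SLC26A3, MMP12, MUC13, MS4A18, SI and LGALS16 had no count at day 7, so their place in this order comes from the prior count of the fit, and against a floor of 3 counts they were at least 175-fold to at least 454-fold higher. MUC13, a membrane mucin of gut and other epithelia, had no count at day 7 and was at least 252-fold higher at day 19. PHGR1, a small protein of the gut lining, had 0 and 0.0481 CPM at day 7 and 69.2 and 74.0 CPM at day 19, and SERPINA7, the thyroxine binding globulin made by liver, had 0 and 0.0481 CPM at day 7 and 61.5 and 64.6 CPM at day 19. MMP12, macrophage elastase, had no count at day 7 and 21.6 and 31.6 CPM at day 19. SULT1A3 had 0 and 0 CPM at day 7 and 23.02 and 42.5 CPM at day 19, but its reads cannot be told from those of its copy SULT1A4. Among the 15 genes with the largest fall were SLC7A3, an arginine carrier of stem cells (from 118 and 116 to 0.363 and 0.789 CPM), RHBDL3, a rhomboid-like protein of the nervous system (from 44.6 and 43.0 to 0.363 and 0.364 CPM), ZIC2 and LHX5, factors of the early brain (from 22.97 and 21.5 to 0.182 and 0.243 CPM and from 17.96 and 19.2 to 0.303 and 0.304 CPM), and ZSCAN10, a zinc finger factor of stem cells (from 19.4 and 22.1 to 0.363 and 0.304 CPM). LHFPL4, VRTN, COL9A1, CTNNA2, DISP3, HMX1, PTGDR, CACNG7 and GPR19 were also among them, with log2 fold changes from -6.85 to -5.43.

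Some genes that rose lie side by side on the chromosome. Runs of at least 5 neighbouring tested genes, each called and at least 4-fold changed in 1 direction, numbered 7, all upward, by a rule chosen after the data were seen. The longest held 8 serpin genes on chr14:94280460-94624053, SERPINA10, SERPINA6, SERPINA1, SERPINA11, SERPINA12, SERPINA4, SERPINA5 and SERPINA3, with log2 fold changes from 2.07 to 8.81. SERPINA6, the cortisol carrier, went from 0.385 and 0.240 to 8.12 and 8.74 CPM, and SERPINA5, the protein C inhibitor, from 8.72 and 8.47 to 283 and 293 CPM. A run of 6 on chr4:68815994-69860145 held the glucuronosyltransferases UGT2B10, UGT2A3, UGT2B7 and UGT2B11 and the sulfotransferases SULT1B1 and SULT1E1. Another run of 6 on chr1:153357854-153551769 held LOC101928034 and the calcium binding genes S100A9, S100A7, S100A6, S100A4 and S100A3, with S100A6 rising from 10.7 and 9.67 to 189 and 217 CPM and S100A4 from 1.20 and 1.44 to 17.4 and 17.4 CPM. On chr11:2840135-2929420, 5 neighbours included the imprinted genes CDKN1C, SLC67A1 and PHLDA2. These coordinates are those of RefSeq genes on GRCh38.p14.

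Shares of transcripts within a gene were less steady than gene levels. Of 5764 genes of at least 10 CPM in each control library with at least 2 listed transcripts, 388 (6.73%) had a transcript whose share differed by at least 30 percentage points between the mean of the days without overlap of the libraries. The 2 libraries of day 7 differed from each other by that much for some transcript in 387 of the same genes, and those of day 19 in 493. Shares are estimates of the RSEM model, and the count of shifted genes thus gives no more than a list of candidates. The 10 transcripts with the largest shifts belonged to DHRS4-AS1, ZNF845, PCGF5, MAPRE2, DEPDC5, EPB41, FAM135A and PTN. In EPB41, a membrane skeleton protein with many splice forms, NM_001166007 held 1.77% and 4.77% at day 7 and 82.5% and 77.7% at day 19. Further genes, chosen after their values were seen, were INSR, MEST, SSBP3 and TPM2. For the insulin receptor, the longer transcript NM_000208, which keeps an alternative exon and encodes the form of adult liver, held 19.9% and 13.6% at day 7 and 85.9% and 68.2% at day 19, and NM_001079817, the form of fetal tissue without this exon, held the rest. The 2 differ by 36 bases, and the gene level of INSR was 31.7 and 34.4 CPM at day 7 and 162 and 129 CPM at day 19. For TPM2, beta-tropomyosin, NM_213674 held 16.1% and 16.2% at day 7 and 83.6% and 85.1% at day 19. For MEST, an imprinted gene with alternative promoters, NM_002402 held 29.0% and 30.8% at day 7 and 96.1% and 94.0% at day 19, with the gene itself rising from 145 and 139.9 to 396 and 397 CPM.

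**Figure D4:**
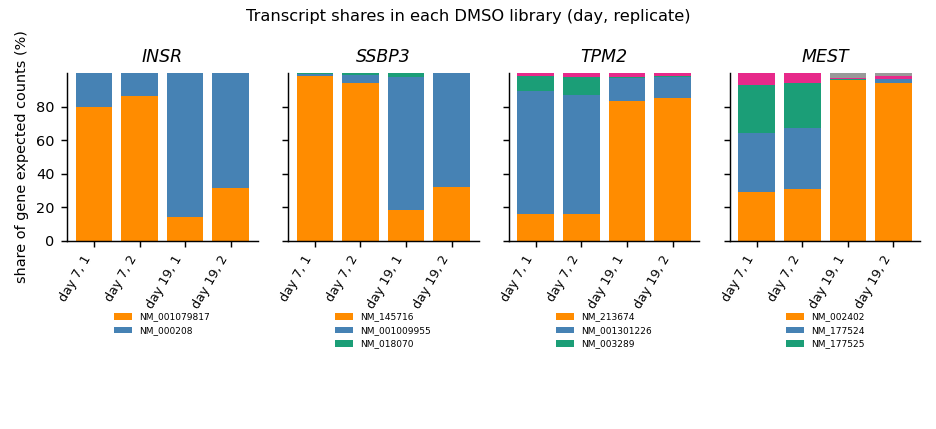
Stacked bars give the share in percent of each RefSeq transcript in the summed expected counts of 4 genes, in each of the 4 DMSO libraries, with up to 3 leading transcripts named below each panel and the others in pink and grey. The 4 genes were chosen after their values were seen, so their agreement is no test. In each the leading transcript at day 19 differs from that at day 7 in both replicates, as with INSR NM_000208 at 19.9% and 13.6% against 85.9% and 68.2%.

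The course in DMSO was then set beside the same days in T3 and in T4 libraries, which share no library with it. Under T3 73.1% and under T4 71.9% of the genes tested were called between the days. By direction, 35.2% were called higher and 37.9% lower under T3, and 35.5% higher and 36.4% lower under T4. Of the 6801 genes that rose in DMSO, 75.8% also rose under T3 and 80.0% under T4, and these were 81.0% and 84.6% of the genes that rose under the hormones. Of the 6311 that fell, 80.7% fell under T3 and 82.9% under T4, or 74.2% and 79.4% of the genes that fell there. The opposite call was made under T3 for 490 of the genes that rose and 240 of those that fell, and under T4 for 266 and 132. By an interaction term, the course differed between T3 and DMSO for 6873 genes (38%) and between T4 and DMSO for 5018 genes (27.7%), with edgeR's quasi-likelihood test and an adjusted p of at most 0.05.

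The medians of gene groups are given for the 3 conditions, with the number of members for which the interaction term was called. Ribosomal proteins had medians of -0.57, -0.56 and -0.61 on the log2 scale in DMSO, T3 and T4, and the interaction term was called for 2 of 50 members under T3 and for 0 under T4. Plasma carriers and inhibitors had medians of 5.82, 0.81 and 2.51, with the interaction called for 24 of 31 members under T3 and 19 under T4. Coagulation factors had 3.08, 0.44 and 1.10, with 17 of 24 and 16 of 24 called. Intestinal markers had 7.90, 5.91 and 7.35, with 7 of 15 and 5 of 15 called. Mitosis genes had -2.05, -2.84 and -2.27, with 32 of 35 and 10 of 35 called. Interferon genes had 1.98, 3.19 and 3.23, with 11 of 23 and 9 of 23 called. The share of members called is to be read against 38% and 27.7% of all genes.

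Single genes with large interaction terms illustrate this. AHSG had 532 CPM at day 19 in DMSO and 2.85 and 6.75 CPM in T3 and T4, from day 7 levels of 3.25, 2.62 and 2.27 CPM. SLC22A7 had 166 CPM at day 19 in DMSO and 1.06 and 6.09 CPM in T3 and T4, from day 7 levels of 7.68, 8.81 and 7.10 CPM. SERPINA7, the thyroxine carrier, had 63.1 CPM in DMSO at day 19, no count in T3 and 0.313 CPM in T4. NUPR1, a stress-induced chromatin protein, rose to 7.76 CPM in DMSO and to 320.0 and 132 CPM in T3 and T4.

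**Figure D5:**
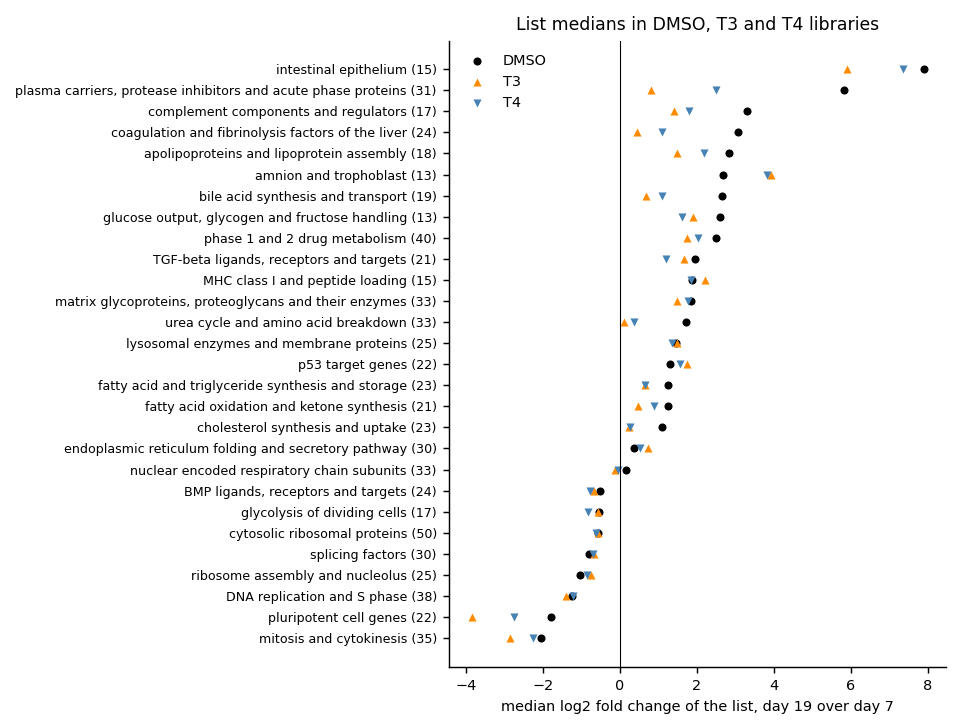
For each gene list, the median log2 fold change of day 19 over day 7 is drawn for DMSO (black circle), T3 (orange triangle) and T4 (blue triangle) libraries, with 2 libraries per day and condition and the number of tested members in brackets. The 3 medians lie within 0.1 of each other for ribosomal proteins and are far apart for plasma carriers, at 5.82, 0.81 and 2.51.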

How the data were processed

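Total RNA of H9 cells at day 7 and day 19 was sequenced by the submitters, with 2 libraries for each of DMSO, T3 and T4 at each day. Per the submitters' processing notes, HISAT, Bowtie2 and RSEM were used with hg38, and versions are not given in the sources used here. The deposited tables hold, for each of 49217 RefSeq transcripts, expected counts from the authors' RSEM run, not normalized, and FPKM, which the authors scaled by transcript length and library size.

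Both units were added up per gene, over the transcripts of 23922 Entrez genes, and the summed counts were rounded. Symbols of 23801 genes came from RefSeq (GRCh38.p14), and 121 had none. Genes were filtered with filterByExpr, scaled with TMM and tested with edgeR 4.0.16 (R 4.3.3) in 1 fit of all 12 libraries, with 1 coefficient for each group (6 residual degrees of freedom) and a common biological variation of 5.42%. Genes with an adjusted p of at most 0.05 (Benjamini-Hochberg) were called. Courses were compared by interaction terms. Totals of 18363549 to 19306181 counts per control library set the precision, and levels under 1 CPM rest on few reads. Fits were tested on simulated data.

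Members and lists were chosen with earlier results of these data known. Named genes were the 15 largest changes each way of at least 5 CPM without overlap, per list up to 6 of smallest p and 3 against the majority, the 6 largest course differences each way, the 10 of highest FPKM, the 10 largest transcript shifts and a set of landmark genes, some of which are not reported here. Alternatives were DESeq2 1.42.0, limma 3.58.1 on log2(FPKM + 0.1) or + 1 with at least 0.5 FPKM in 2 libraries, other scalings, no filter, the DMSO libraries alone, a replicate block and each replicate left out. Library totals alone were added after seeing the data. Figures were drawn with Python 3.11.15 and matplotlib 3.10.9. Mature microRNAs were not analysed here.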

Additional observations from a re-analysis of the deposited data

Results flagged for a closer look

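The course from day 7 to day 19 differed from that in DMSO for 6873 genes under T3 and for 5018 genes under T4, by the interaction term of edgeR's quasi-likelihood test, which is what set the genes below apart. Terms were ranked among called genes of at least 5 CPM in a group whose hormone and DMSO libraries did not overlap at day 19. Symbols starting LOC, LINC or MIR were left out. Under T3, the 6 largest positive terms so ranked on the log2 scale, the hormone course minus the DMSO course, were those of NUPR1 (6.84), PLAAT4 (5.05), TRIM63 (4.89), SMOC1 (4.81), CHI3L1 (4.76) and TPPP3 (4.68). The 6 most negative were those of SERPINA7 (-14.59), SULT1A3 (-13.12), APOH (-9.12), ERICH4 (-7.85), the plasminogen gene PLG (-7.77) and SLC22A7 (-7.47). Under T4, the largest positive terms were those of SERF1A (17.28), SST (5.75), CHI3L1 (4.99), NUPR1 (4.41), NPB (4.34) and PLAAT4 (3.97), and the most negative those of SULT1A3 (-13.20), RN7SL1 (-7.40), RN7SL2 (-7.14), APOH (-6.77), ITIH2 (-6.15) and AHSG (-5.79).

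Terms of genes with no count in a group depend on the prior count of the fit and are no measure of size. This holds for SERPINA7, at 0 in T3 libraries of day 19, for SULT1A3 and APOH, at 0 in DMSO libraries of day 7, for TRIM63, at 0 in T3 libraries of day 7, for SST, at 0 in T4 libraries of day 7, and for SERF1A, at 0 in DMSO libraries of day 19 and T4 libraries of day 7. SERF1A, SULT1A3 and the signal recognition particle RNAs RN7SL1 and RN7SL2 have near-identical copies, and their reads could be split between them. PLG had 2.98 and 487 CPM at day 7 and day 19 in DMSO, 2.13 and 1.59 CPM under T3 and 2.18 and 8.88 CPM under T4. SMOC1, a matrix protein that binds calcium, had 2.05 and 14.1 CPM in DMSO, 0.783 and 152 CPM under T3 and 0.930 and 76.5 CPM under T4.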

How the results depend on the processing

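The count of 13112 genes called in DMSO ran from 12078 to 12379 without 1 control replicate, where the lone sample of a day is assumed to vary like the other groups. Genes called higher ran from 6349 to 6522, genes called lower from 5729 to 5879 and those changed at least 2-fold from 5948 to 6090. For the T3 difference the same omissions, hormone libraries included, gave 5699 to 6898 genes called, 2490 to 3097 higher, 3209 to 3801 lower and 2149 to 2656 at least 2-fold. For the T4 difference they gave 3812 to 4768, 1660 to 2110, 2126 to 2658 and 1269 to 1492. Limma on FPKM called 4389 genes higher in DMSO with a pseudocount of 0.1 and 4435 with 1, against 6801. For the T4 difference it called 3611 and 3831 higher against 2250 and, with 0.1, 1630 lower against 2768, and library totals alone gave 3920 and 1831. With a pseudocount of 1, 1562 genes differed at least 2-fold for T3 against 2432, and 944 for T4 against 1467. SUZ12, a Polycomb subunit called higher by 0.30, was at -0.104 with library totals alone and at -0.103 and -0.0924 with limma. Shifted transcripts were counted in 85 genes at 50 CPM and in 913 at 20 percentage points. GTTAAT stood in 6.84% and TATAAA in 11.1% of windows of genes at least 2-fold higher. Of 154 list counts 32 moved by over 1.5 times with library totals alone, 31 and 33 with limma, 4 with DESeq2 and 4 with the 4 DMSO libraries alone.

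Same-numbered libraries of the days did not deviate together (r = -0.00848 across genes). With so few libraries, this value cannot settle whether equal replicate numbers mark a shared culture, and the labels do not say. With the number as a replicate block, 13092 genes were called, and 6825 and 4965 for the T3 and T4 differences. Low counts limit statements on adult enzymes such as CYP3A4. The cause of the moves above was not tested.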
